A study of Mus musculus with 4 samples.

Results

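A small set of genes was read in libraries of sorted macrophages from MycCaP tumours and was almost absent from those of MycCaP-BMP4 tumours. The genes were Vtn, Glrb, Cps1, Fibin, Adamdec1, Lcn11, Npnt and Cyp2b10. They were chosen by their values. A gene was taken if it had at least 4 CPM (counts per 1000000 gene counts) in both MycCaP libraries and if its higher MycCaP-BMP4 value was at most 0.125 of its lower MycCaP value. Of 39179 genes in the files, 10180 met the first condition and 14 met both, which is 0.138% of 10180. Leaving out Agt, Igfbp5, Itgbl1, Ucma and Gbp8 by name gave 9 genes, of which the 8 named above are described here. The same thresholds turned round took 49 genes, 0.482% of the 10161 genes of at least 4 CPM in both MycCaP-BMP4 libraries. The choice used all 4 libraries, so the differences between the groups given below are descriptions of the chosen genes and support nothing.

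The macrophages came from tumours grown under the skin of FVB mice from MycCaP-BMP4 cells, which overexpress BMP4, or from MycCaP cells. MycCaP is a mouse prostate cancer line that arose in an FVB mouse with a human MYC transgene, and both groups share that origin. BMP4 is a ligand of the bone morphogenetic protein family, whose receptors act on SMAD proteins. The cell type field of both groups gives the same sort, CD45+, CD11b+, GR1- and F4/80+ cells, with 2 samples per group, but F4/80 stands in the sample titles of MycCaP-BMP4 and not in those of MycCaP. A difference in the sort and the difference in cell line cannot be told apart if the titles mean one. The labels give no age or sex of the mice, do not say whether each sample was 1 mouse or a pool, and do not say whether the lines are single clones. Any p-value therefore reflects sample-to-sample spread that could be purely technical.

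The 8 genes do not belong to one pathway. Vtn encodes vitronectin, an adhesive glycoprotein of plasma and matrix that binds integrins and is made mainly by the liver. Npnt encodes nephronectin, a basement membrane ligand of integrin alpha-8 beta-1, and Fibin encodes a secreted protein first described in the fin bud of zebrafish. Adamdec1 encodes a secreted metalloprotease related to the ADAM family and is known from macrophages and gut stroma. Cps1 (the mitochondrial enzyme that starts the urea cycle) and Cyp2b10 (a cytochrome P450 induced by the nuclear receptor CAR) are best known as liver enzymes. Glrb encodes the beta subunit of the glycine receptor, a chloride channel that gephyrin anchors at synapses, and Lcn11 encodes a lipocalin.

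The libraries held 24313328 and 23058263 gene counts for MycCaP-BMP4 replicates 1 and 2 and 24967143 and 24385036 for MycCaP replicates 1 and 2, and values below follow that order within a group. A floor of 3 counts was worth 0.120 to 0.130 CPM, which covers counting error only. Bmp4 had 581 and 179 CPM in MycCaP-BMP4 libraries, against 0.160 and 0.0410 CPM in MycCaP libraries. The genes of the sorted surface proteins were read in all libraries: in the MycCaP-BMP4 libraries they stood at 143 and 371 CPM for Ptprc (CD45), 145 and 612 for Itgam (CD11b) and 166 and 630 for Adgre1 (F4/80), and in the MycCaP libraries at 595 and 669, 654 and 851, and 791 and 893 CPM in the same gene order. Ly6g, a GR1 gene, had no count in any of them. MycCaP-BMP4 replicate 1 stood apart: the median of 15 pan-macrophage genes was 23.5% of the MycCaP mean there and 81.4% in MycCaP-BMP4 replicate 2. In RNA from a sorted population, fewer cells of a type and less RNA per cell cannot be told apart.

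Among the secreted and matrix genes, Vtn went furthest. Vtn (ENSMUSG00000017344; chromosome 11, 78499091 to 78502324 on GRCm38, plus strand) had 0 and 0 CPM in the MycCaP-BMP4 libraries, against 9.09 and 14.4 CPM in the MycCaP libraries. It was the 1 gene of the 8 with no read in either MycCaP-BMP4 library, against 577 reads in the MycCaP pair. With a floor of 3 counts assumed over the pooled MycCaP-BMP4 pair, not per library, Vtn was 185-fold lower. That is not a minimum, since the lower limit of the exact 95% counting interval was 149.7-fold.

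Fibin (ENSMUSG00000074971; chromosome 2, 110360917 to 110363183, minus strand) had 0.123 and 0.0867 CPM (MycCaP-BMP4) against 4.25 and 6.64 CPM (MycCaP), that is 3 and 2 reads in MycCaP-BMP4 libraries against 106 and 162 in MycCaP libraries. It was the member closest to the level threshold, and both MycCaP-BMP4 values lay at or under the floor. Npnt (ENSMUSG00000040998; chromosome 3, 132881745 to 132950291, minus strand) had 0.411 and 0.954 CPM (MycCaP-BMP4) against 8.13 and 11.4 CPM (MycCaP). It was one of only 2 members with more reads in MycCaP-BMP4 replicate 2 than in replicate 1, 22 and 10; the other was Glrb. Adamdec1 (ENSMUSG00000022057, chromosome 14, 68563380 to 68582095, minus strand) had 0.781 and 0.694 CPM (MycCaP-BMP4) against 10.8 and 16.8 CPM (MycCaP). Its group means were 0.738 ± 0.0619 CPM in MycCaP-BMP4 and 13.8 ± 4.21 CPM in MycCaP libraries (SD, n = 2 each), so the gap was wider than the spread of either pair. The choice fixed the gap between the groups, though not the spread of the MycCaP pair.

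**Figure D1:**
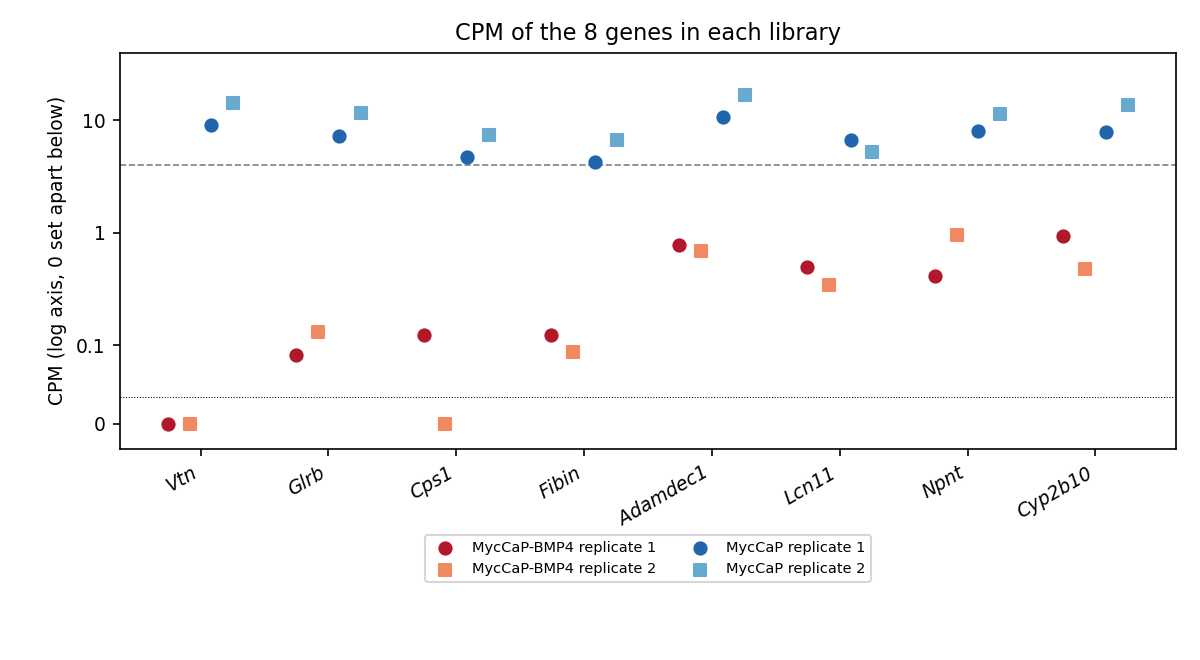
CPM of each of the 8 genes (log axis, with 0 set apart under the dotted line) in the 2 MycCaP-BMP4 libraries (red, orange) and the 2 MycCaP libraries (blue, light blue). The dashed line is the 4 CPM threshold; Vtn was at 0 in both MycCaP-BMP4 libraries and Cps1 in replicate 2.

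The genes of liver-type metabolism differed in how much was left. Cps1 (ENSMUSG00000025991; chromosome 1, 67123026 to 67231259, plus strand) had 0.123 and 0 CPM in MycCaP-BMP4 libraries, against 4.77 and 7.38 CPM in MycCaP libraries. With 3 reads in the MycCaP-BMP4 pair against 299 in the MycCaP pair, it was 95.7-fold lower when each group was pooled, with a 95% counting interval of 32.4 to 467. Cyp2b10 (ENSMUSG00000030483; chromosome 7, 25897620 to 25926624, plus strand) had 0.946 and 0.477 CPM (MycCaP-BMP4) against 7.89 and 13.9 CPM (MycCaP). It lay nearest to the ratio threshold, with a higher MycCaP-BMP4 value at 11.99% of its lower MycCaP value.

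Glrb (ENSMUSG00000028020; chromosome 3, 80843599 to 80913660, minus strand) had 0.0823 and 0.130 CPM in MycCaP-BMP4 libraries, against 7.25 and 11.8 CPM in MycCaP libraries. Its 2 and 3 reads were at or under the floor, and it was 89.8-fold lower in the pooled counts (interval 38.2 to 278). Lcn11 (ENSMUSG00000069080; chromosome 2, 25777017 to 25780279, plus strand) had 0.494 and 0.347 CPM (MycCaP-BMP4) against 6.73 and 5.29 CPM (MycCaP), and was 14.3-fold lower (interval 9.06 to 23.7). Per kilobase of exon, which allows genes to be set side by side, Lcn11 had the highest mean MycCaP level at 9.22 CPM per kb and Cps1 the lowest at 1.09, with Vtn at 5.77, Adamdec1 at 5.65, Cyp2b10 at 5.15, Fibin at 2.40, Glrb at 2.04 and Npnt at 1.95.

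The word "switched off" fits Vtn only in the strict sense of no read. By the reads left in the MycCaP-BMP4 pair the genes fell into Vtn with none, then Glrb, Cps1 and Fibin with 3 to 5, and the other 4 genes with 20 to 35. As a share of the MycCaP mean, the 8 genes stood at 0% to 8.70% in MycCaP-BMP4 replicate 1 and at 0% to 9.75% in replicate 2. The pan-macrophage median was at 23.5% and 81.4% in those libraries. The threshold of 12.5% fixed that the 8 genes lie below it. Its part in the result was not tested.

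Just outside the ratio threshold of 12.5% were 5430419D17Rik at 13.3%, Ogn at 13.7% and Cox4i2 at 14.3%, and just inside it were Cyp2b10 at 11.99%, Npnt at 11.7% and Lcn11 at 9.33%. Ogn encodes osteoglycin, a small proteoglycan of connective tissue, and had 7.86 and 3.34 CPM (MycCaP-BMP4) against 57.4 and 141 CPM (MycCaP). At the level threshold, Fibin, Cps1 and Lcn11 were nearest inside, with lower MycCaP values of 4.25, 4.77 and 5.29 CPM. Gm12883, Faim2 and Cilp2 were nearest outside, with 3.90, 3.52 and 3.24 CPM.

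**Figure D2:**
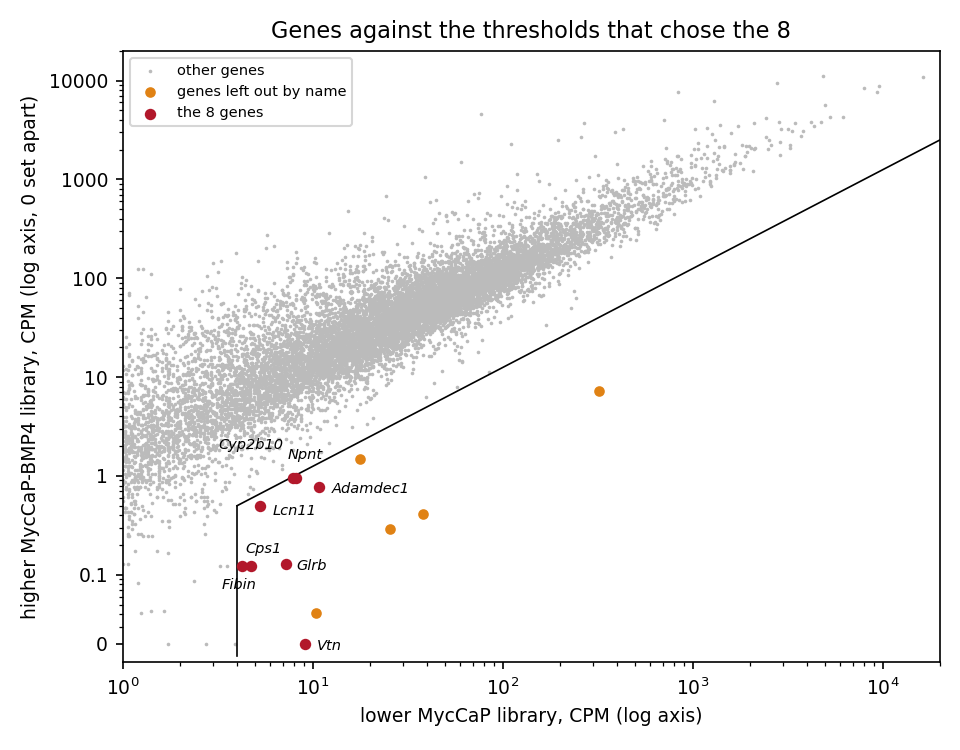
Higher MycCaP-BMP4 value against lower MycCaP value for genes of at least 1 CPM (both axes log, 0 set apart), with the 8 genes in red, the 5 left out by name in orange and the thresholds as black lines. Cyp2b10 and Npnt lie close to the sloped line and Vtn at 0.

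Across all genes, at a Benjamini-Hochberg adjusted p under 0.05 the quasi-likelihood test of edgeR called 0 of 14075 genes (0% called), with 2680 at an unadjusted p under 0.05; DESeq2 called 1385 and limma-voom 0. All 8 genes passed the filter on low counts and 0 of 8 were called. As a description of genes chosen on this contrast, their edgeR adjusted p ran from 0.0872 for Glrb to 0.113 for Npnt. The fitted log2 fold changes, MycCaP-BMP4 over MycCaP, were -6.57 ± 0.66 (SE) for Glrb, -4.38 ± 0.47 for Adamdec1 and -3.97 ± 0.64 for Npnt. The median of all genes tested was -0.03.

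Promoter sequence was at hand for 6 of the 8 genes, from RefSeq on GRCm38.p6. The 250 bases before the RefSeq start were searched on both strands. For Vtn, Fibin and Cyp2b10 that start lies inside the gene positions given above, so part of the window is within the gene. For Fibin this is most of the window. One motif was TATAAA, the core of the TATA box. Another was the promoter element CCAAT. The E-box that MYC binds was searched as CACGTG. A BMP-responsive SMAD element was searched as GGCGCC. The last was AGAACA, a hexamer found in androgen and glucocorticoid receptor sites. CACGTG and GGCGCC were in 0 of 6, against 6.02% and 9.59% of 32851 promoters of the same length. AGAACA was in 3 of 6 (Vtn, Fibin and Lcn11), against 16.1%, TATAAA in Vtn alone, against 12.4%, and CCAAT in Lcn11 alone, against 33.8%. In Fibin the AGAACA match lies inside the gene positions given above, not before them. The 3 promoters with AGAACA are shown, with matches to these motifs in capitals (in Vtn and Lcn11 AGAACA lies on the other strand and reads TGTTCT, and in Vtn the TATAAA matches on the 2 strands overlap), and Glrb is shown as a promoter rich in CG with none of them. A match describes the letters and is not a bound site, and a missing match says nothing of the factor.
Vtn (chr11:78498870-78499119, plus strand): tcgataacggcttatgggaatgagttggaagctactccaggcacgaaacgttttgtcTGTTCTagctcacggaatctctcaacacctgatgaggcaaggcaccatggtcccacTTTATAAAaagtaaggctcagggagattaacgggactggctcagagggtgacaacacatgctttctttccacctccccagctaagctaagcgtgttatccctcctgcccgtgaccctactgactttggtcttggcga
Fibin (chr2:110362994-110363243, minus strand): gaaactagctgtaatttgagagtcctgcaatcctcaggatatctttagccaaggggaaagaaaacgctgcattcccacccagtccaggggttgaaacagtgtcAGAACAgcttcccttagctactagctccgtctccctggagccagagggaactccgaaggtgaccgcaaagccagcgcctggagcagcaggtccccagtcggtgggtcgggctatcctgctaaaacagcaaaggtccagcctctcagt
Lcn11 (chr2:25776767-25777016, plus strand): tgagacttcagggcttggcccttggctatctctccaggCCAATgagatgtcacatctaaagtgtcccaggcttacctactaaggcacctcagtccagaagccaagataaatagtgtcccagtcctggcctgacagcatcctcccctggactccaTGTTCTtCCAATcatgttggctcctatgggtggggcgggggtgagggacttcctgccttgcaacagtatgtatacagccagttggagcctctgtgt
Glrb (chr3:80913661-80913910, minus strand): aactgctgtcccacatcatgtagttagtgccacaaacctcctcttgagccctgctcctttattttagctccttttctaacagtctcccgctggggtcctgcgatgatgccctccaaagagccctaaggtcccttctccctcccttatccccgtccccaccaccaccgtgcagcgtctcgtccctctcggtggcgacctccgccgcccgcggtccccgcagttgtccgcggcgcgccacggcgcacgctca

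Base composition differed widely within the set. The 250 bases before the RefSeq start held 62.4% G and C and 20 CG pairs in Glrb and 74.0% and 21 in Npnt. Lcn11 had 53.6% and 1, and Cyp2b10 had 52.8% and 4. Vtn had 50.4% and 9, and Fibin 54.8% and 7. The medians over all promoters were 52.4% and 6.

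A difference that the choice did not fix lay between the 2 MycCaP libraries. Of the 8 genes, 7 were higher in MycCaP replicate 2 than in replicate 1, by 1.41-fold (Npnt) to 1.76-fold (Cyp2b10), and Lcn11 was the exception at 0.786-fold (95% counting interval 0.620 to 0.995). Vtn stood at 1.58-fold (1.33 to 1.87), Glrb at 1.62-fold (1.34 to 1.97) and Adamdec1 at 1.55-fold (1.33 to 1.82). Among the 10180 genes of at least 4 CPM in both MycCaP libraries the median ratio was 1.06, and 61.4% had a ratio above 1. A ratio of 1.41 or more was found for 9.31%, but that cut was taken from the 8 genes themselves. The genes left out by name shared this in part, with 2.08-fold for Igfbp5, 1.72-fold for Itgbl1, 1.67-fold for Agt, 1.22-fold for Ucma and 1.10-fold for Gbp8. With 1 library on each side these ratios have no replicate check.

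The ratio differed between the 25 lists. It was 1.41 or more for 4 of them and under 1 for 6. The summed CPM of 18 fibroblast and mural genes was 1.66 times as high in MycCaP replicate 2 as in replicate 1. Without Fn1, described below, that list gave 2.55 times. The sum of 14 endothelial genes was 1.75 times as high, that of 17 cartilage genes 1.59 times and that of 13 mast cell and basophil genes 2.66 times. The T and NK cell list gave 1.06, neutrophils 1.02, pan-macrophage genes 0.948, dendritic cells 0.823 and the erythroid and platelet list 0.676. Between the groups the fibroblast and mural list summed to 6721 and 4774 CPM in MycCaP-BMP4 libraries, against 1539 and 2555 CPM in MycCaP libraries. Most of that sum was Fn1, which encodes fibronectin and is not particular to fibroblasts, at 6137 and 4361 CPM (MycCaP-BMP4) against 1294 and 1932 CPM (MycCaP). Without Fn1 the list summed to 584 and 413 CPM in MycCaP-BMP4 libraries, against 245 and 623 CPM in MycCaP libraries, and those groups overlap. Of its 17 tested genes, 5 lay higher and 1 lower in both MycCaP-BMP4 libraries, with 0 called and a median log2 fold change of -0.10, beside 34.4% higher and 23% lower among all genes tested. The endothelial list summed to 101 and 47.8 CPM (MycCaP-BMP4) against 76.3 and 134 CPM (MycCaP). The cartilage list summed to 221 and 97.0 CPM (MycCaP-BMP4) against 41.7 and 66.1 CPM (MycCaP). Most of its MycCaP-BMP4 sum was Sox9, at 145 and 64.7 CPM (MycCaP-BMP4) against 10.2 and 18.7 CPM (MycCaP). Of its 11 tested genes, 6 lay higher and 1, Col11a1, lower in both MycCaP-BMP4 libraries, beside 34.4% and 23% of all genes tested. The mast cell and basophil list had low sums, 46.5 and 66.4 CPM (MycCaP-BMP4) against 10.5 and 27.9 CPM (MycCaP). No fibroblast, endothelial, cartilage or mast cell marker was at 0 in all 4 libraries. The part of these cells in the result was not tested.

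**Figure D3:**
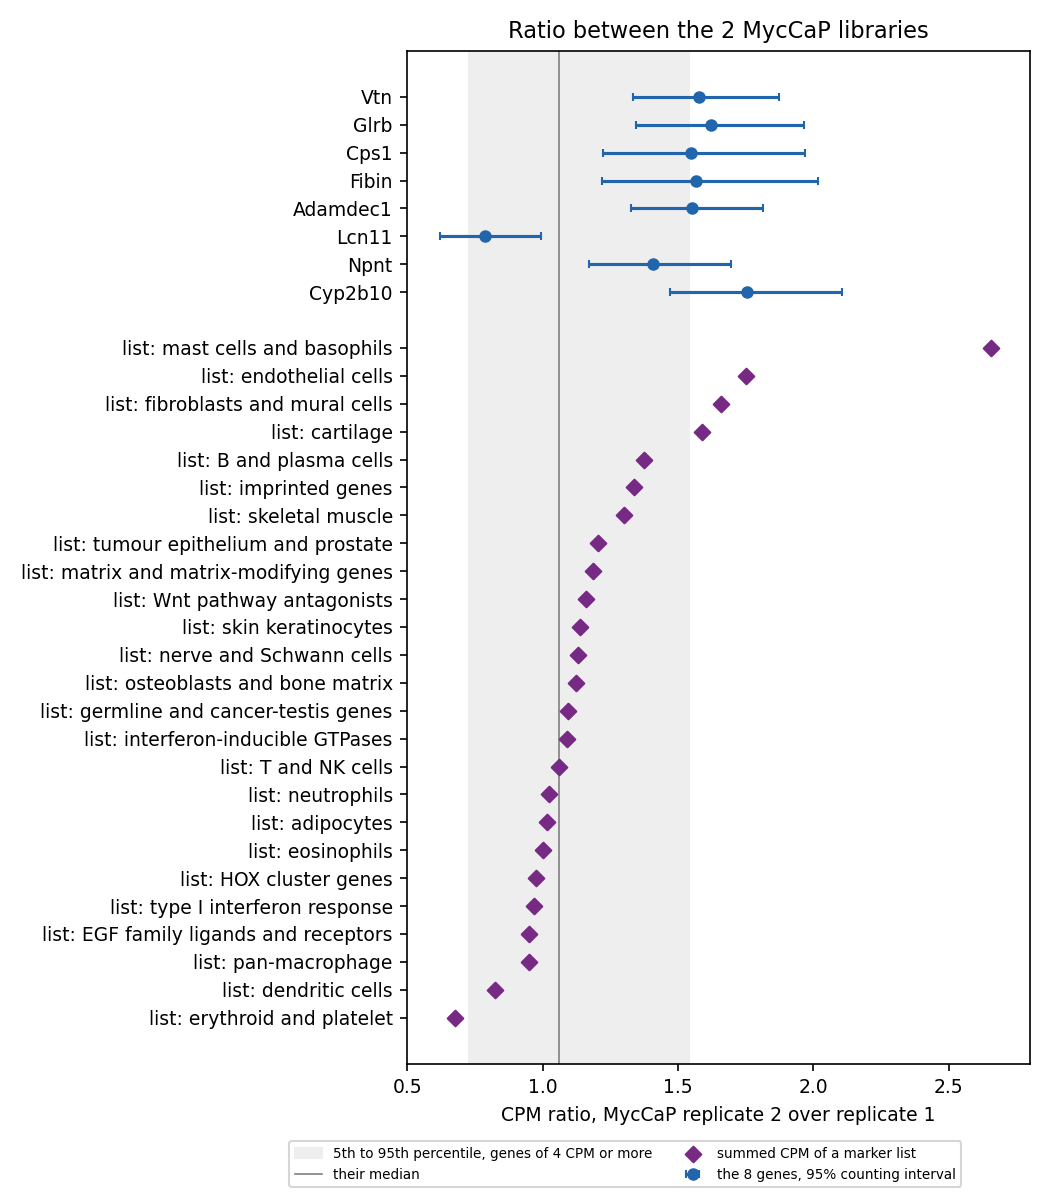
CPM ratio of MycCaP replicate 2 over replicate 1 for the 8 genes (circles, with 95% counting intervals) and for the summed CPM of each of the 25 lists (diamonds, highest ratio on top); the grey band is the 5th to 95th percentile of genes of at least 4 CPM. Of the 8 genes, 7 lie from 1.41 to 1.76 and Lcn11 at 0.786, while the lists run from 2.66 (mast cells and basophils) to 0.676 (erythroid and platelet).

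None of the 8 genes is on any of the 25 marker and pathway lists. Beside 23% of all tested genes that lay lower and 34.4% that were higher in both libraries of MycCaP-BMP4 (29.7% and 28.9% with TMM factors), 7 of 19 tested matrix genes lay lower and 5 higher (median log2 fold change -0.45), and the tumour epithelium and prostate list 2 lower and 9 higher of 13, with a median of 1.51. T and NK cell genes were lower for 22 and higher for 1 of 26, with a median of -2.35, type I interferon response genes lower for 24 of 24 (-1.69), interferon-inducible GTPases lower for 14 of 14 (-1.81) and pan-macrophage genes lower for 12 of 15 (-1.09). No gene of these lists was called, as edgeR called 0 of all 14075 genes tested. The tumour epithelium and prostate list summed to 1590 and 561 CPM (MycCaP-BMP4) against 314 and 378 CPM (MycCaP). In it, Cldn3 had 408 and 124 CPM (MycCaP-BMP4) against 23.6 and 26.8 CPM (MycCaP). The part of tumour cells in the result was not tested.

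Because Vtn, Cps1 and Cyp2b10 are known from the liver, 11 hepatocyte genes were read as well, a list chosen after the 8 genes were known. Otc had no read in any library. Alb, the albumin gene, had 0.370 and 0.0867 CPM in MycCaP-BMP4 libraries, against 0.521 and 0 CPM in MycCaP libraries, and Apoa1, Apob, Serpina1a, Tat and Hnf4a stayed under 0.25 CPM in each. Ttr stayed under 1.2 CPM, and Ahsg had 4.52 and 1.69 CPM (MycCaP-BMP4) against 0 and 0 CPM (MycCaP). The fibrinogen genes were the exceptions: Fgb had 1422 and 486 CPM (MycCaP-BMP4) against 402 and 584 CPM (MycCaP), and Fga had 8.47 and 2.26 CPM (MycCaP-BMP4) against 4.61 and 6.03 CPM (MycCaP). The part of liver cells in the result was not tested.

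Genes that work with the 8 were read too, also chosen afterwards. None was called, as edgeR called 0 of all 14075 genes tested, so this says nothing of the partners. Those that failed the filter on low counts, such as Otc, Nags, Glra1 and Nr1i3, were not tested. For Vtn, the receptor subunit genes Itgav and Itgb5 had 114 and 114 CPM (MycCaP-BMP4) against 75.3 and 92.3 CPM (MycCaP), and 663 and 376 CPM (MycCaP-BMP4) against 407 and 423 CPM (MycCaP). Itgb3, the subunit that pairs with alpha-v in the classical vitronectin receptor, had 130 and 57.5 CPM (MycCaP-BMP4) against 8.97 and 10.9 CPM (MycCaP), with an edgeR adjusted p of 0.101. For Npnt, the receptor gene Itga8 had 0.0823 and 0.564 CPM (MycCaP-BMP4) against 1.16 and 1.39 CPM (MycCaP). The partner gene Itgb1 had 1261 and 1012 CPM (MycCaP-BMP4) against 856 and 988 CPM (MycCaP).

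Partners of the enzymes and of Glrb were read unevenly. Of the urea cycle, Otc had no read in any library and Nags at most 0.0867 CPM, while Ass1 had 7.49 and 19.7 CPM in MycCaP-BMP4 libraries, against 37.2 and 34.7 CPM in MycCaP libraries. For Arg1 the MycCaP-BMP4 values of 92.5 and 1060 CPM enclosed the MycCaP values of 681 and 605 CPM. For Glrb, the alpha subunit genes Glra2, Glra3 and Glra4 had no read in any library. Glra1 had 0.0823 and 0.217 CPM (MycCaP-BMP4) against 0 and 0.0410 CPM (MycCaP). No alpha subunit was thus read above 0.0410 CPM beside the beta subunit in MycCaP libraries. Cyp2b9, Cyp2b13, Cyp2b19 and Cyp2b23, of the same family as Cyp2b10, had no read in any library. Nr1i3, which encodes CAR, had 0.123 and 0.520 CPM (MycCaP-BMP4) against 0 and 0.0410 CPM (MycCaP).

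The 8 genes lie on 6 chromosomes, and no pair on 1 chromosome is closer than 51968 kb. Within 500 kb of them 86 other genes were tested, and in both MycCaP-BMP4 libraries 20 of them were lower and 24 higher, beside 23% and 34.4% of all genes tested. The neighbours' median log2 fold change was -0.02. Beside Lcn11, Kcnt1 and Sohlh1 had log2 fold changes of -2.99 and -2.38, and Lcn12 -2.51, all from values of at most 2.58 CPM in any library. Nos2, the inducible nitric oxide synthase gene near Vtn, had -2.64. None of these neighbours was called, as edgeR called 0 of all 14075 genes tested.

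The nearest tested genes were often far away. Their log2 fold changes lay between -0.72 (Ccdc34, 345.4 kb from the start of Fibin) and 1.78 (Cyp2s1, at -80.71 kb from Cyp2b10), where a minus marks upstream. Tmem199, 13.1 kb from the start of Vtn, had 0.33 and Lancl1, at -84.15 kb from Cps1, had 0.07. For Glrb and Adamdec1 only 1 gene each was tested within 500 kb. These were Pdgfc at -122.8 kb, with -0.23, and Stc1 at -447.1 kb, with 1.165. The counts may or may not have used strand, but only Npnt overlaps another annotated gene, Gm23196, which had no read.

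**Figure D4:**
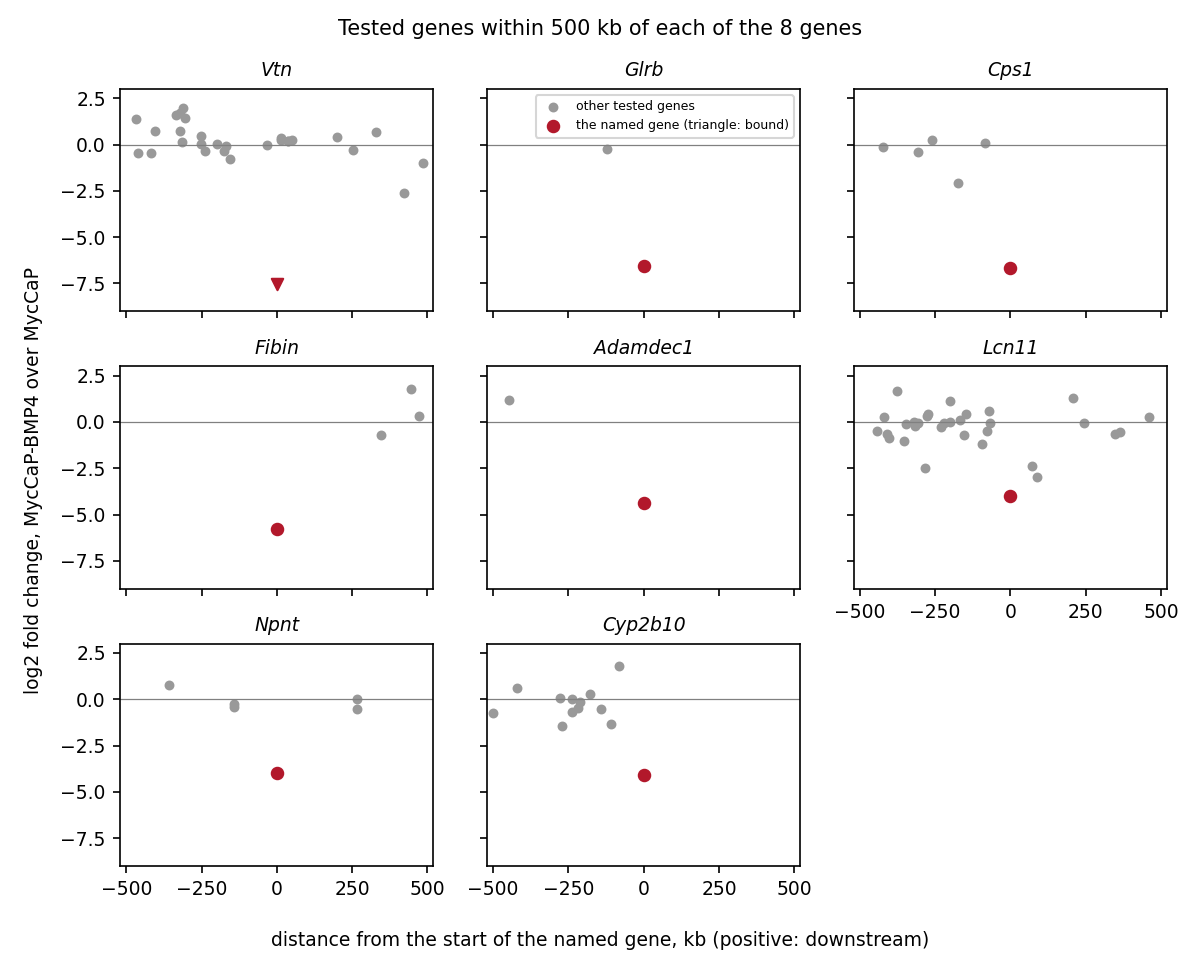
Tested genes within 500 kb of each of the 8 genes (grey) and the named gene itself (red). Log2 fold change, MycCaP-BMP4 over MycCaP, is drawn against distance from the start of the named gene. For Vtn a triangle, labelled as a bound, marks -7.53, the value at 3 assumed counts over the group, without TMM factors. The median of the grey points is -0.02, and the lowest is Kcnt1 beside Lcn11 at -2.99.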

How the data were processed

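Polyadenylated RNA of sorted macrophages was sequenced, and the authors deposited raw HTSeq counts for each gene. The submitters' processing notes name, beside HTSeq, the tools RSEM, Bowtie2 2.2.3 and STAR 2.6.0b, with builds GRCm38 and mm10. Neither annotation release nor strand setting was stated there, and reads of Cyp2b10, which has related genes of the same family, are uncertain. Summary lines that name no gene, 18.1% to 19.4% of reads in MycCaP-BMP4 and 14.6% to 14.9% in MycCaP libraries, were left out. Names, positions and exon lengths came from GENCODE M21, which held 37607 of 39179 identifiers. CPM used gene counts alone.

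Groups follow the cell line in the labels. The test was edgeR 4.0.16 (R 4.3.3) with TMM factors, filterByExpr and quasi-likelihood F tests, two-sided, checked on simulated data. SEs are the log2 fold change over the root of F. Chi-square per degree of freedom was 279 between the MycCaP-BMP4 libraries and 43.2 between the MycCaP libraries, so neither pair was 1 library deposited again. Counting intervals are exact binomial (95%) and cover counting error only. DESeq2 1.42.0, limma-voom 3.58.1, other scalings, filters and thresholds, and each library left out, were alternatives. The genes, lists and tests were chosen with earlier results of these data known; the hepatocyte and partner genes and the crossed block were added after values were seen. 1 of the 9 genes that the rule took, and single genes of the added lists, are not reported or drawn here. Named genes are the other 8, the nearest to each threshold, label checks, leading or absent markers of lists, and tested neighbours.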

Additional observations from a re-analysis of the deposited data

How the results depend on the processing

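The number of genes that met the rule depended on its settings. It was 12 with TMM factors, 4 with CPM scaled on the pan-macrophage genes (Vtn, Glrb, Cps1 and Fibin kept), 16 and 4 with a minimum of 2 and 8 CPM, 37 and 5 with a ratio of 0.25 and 0.0625, and 25 with group means. With 1 library left out it ran from 19 to 59, the highest without MycCaP-BMP4 replicate 2, the others being 19 without MycCaP-BMP4 replicate 1 and 23 and 21 without MycCaP replicates 1 and 2. All 8 genes described were kept with TMM factors. A minimum of 8 CPM lost Glrb, Cps1, Fibin, Lcn11 and Cyp2b10, and a ratio of 0.0625 lost Adamdec1, Lcn11, Npnt and Cyp2b10. The looser thresholds, group means and leaving out a library relax the rule and keep all 8 by construction.

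The edgeR test called 0 genes with DESeq2's size factors and with a filter of 1 CPM in 2 libraries, and limma-voom called 0. It called 65 genes with library size alone, 961 scaled on the pan-macrophage genes (which moved the median of all genes to 1.63), 1109 with no filter, 2 with the replicate number as a replicate block and 1385 by DESeq2. With 1 library left out the calls ran from 0 to 5753, with 1043 without MycCaP-BMP4 replicate 1 and 5753 without MycCaP-BMP4 replicate 2, where the lone sample is assumed to vary like the other group. Across genes, deviations of same-numbered libraries had r = -0.127 and those of crossed numbers 0.127. With 2 libraries per group these 2 values mirror each other, so they cannot decide whether the numbers are pairs. The numbers were not taken as pairs. The crossed block, added after seeing the data, called 689. The cause of these shifts was not tested. The choice of the 8 genes fixed their sign. Of them 8 were called with no filter, by DESeq2, by the crossed block and without either MycCaP-BMP4 library, 4 with library size alone, 4 with the macrophage scaling and 0 otherwise. Over the listed alternatives, the adjusted p of Glrb ran from 3.20e-12 to 0.629 and that of Npnt from 5.77e-08 to 0.837. At 3 to 5 reads, folds of Glrb, Cps1 and Fibin are limited by depth.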

Other observations

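A ratio of 0.25 in place of 0.125 added 28 genes. On the T and NK cell list were 5 of them: Gzma, Trac, Cd3g, Klrk1 and Gzmb. Trac, the constant gene of the T cell receptor alpha chain, had 0.658 and 0.781 CPM in MycCaP-BMP4 libraries, against 4.69 and 4.80 CPM in MycCaP libraries. Klrk1, which encodes the NK receptor NKG2D, had 1.56 and 3.12 CPM (MycCaP-BMP4) against 16.02 and 20.2 CPM (MycCaP). Igha, the constant gene of immunoglobulin A, had 3.33 and 6.29 CPM (MycCaP-BMP4) against 39.3 and 41.7 CPM (MycCaP). The ratio of MycCaP replicate 2 over replicate 1 was 0.741 for Gzma, 0.873 for Cd3g, 1.02 for Trac, 1.13 for Gzmb, 1.26 for Klrk1 and 1.06 for Igha.

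Of other added genes, Ogn had 2.46-fold, 5430419D17Rik 2.05-fold, Angptl7 1.81-fold and H19 1.45-fold more in MycCaP replicate 2 than in replicate 1. Not all added genes did so. Plac8 stood at 0.475-fold, Cox4i2 at 0.848-fold and Il18rap at 0.907-fold. Tlr12, Creg2, Xylt1 and Tspan13 lay from 1.02-fold to 1.05-fold. Angptl7, which encodes a secreted angiopoietin-like protein, had 8.64 and 2.13 CPM in MycCaP-BMP4 libraries, against 43.4 and 78.5 CPM in MycCaP libraries. The imprinted noncoding RNA H19 had 1.36 and 1.43 CPM (MycCaP-BMP4) against 6.21 and 8.98 CPM (MycCaP). Mmp13, a collagenase gene, had 29.2 and 50.05 CPM (MycCaP-BMP4) against 228 and 285 CPM (MycCaP). These genes were named after their values were seen.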
